A study of Mus musculus with 10 samples.

Results

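The metabotropic glutamate receptors are G protein-coupled receptors for the transmitter glutamate, and 6 of their genes, Grm2, Grm3, Grm4, Grm5, Grm7 and Grm8, were followed here in mouse medial prefrontal cortex. They were taken by gene symbol, and each of the 6 matched 1 row among the 78317 genes listed. The tissue came from wild-type mice injected with an adeno-associated virus (AAV). In 5 libraries, numbered 13, 14, 15, 17 and 18, the virus carried miR-130a-3p for overexpression. In the other 5 libraries, numbered 3, 4, 5, 7 and 9, it was a control AAV. The comparison asks which transcripts differ when this microRNA is overexpressed in a brain region studied in depression. The promoter of the viral vectors and the age of the mice are not given in the sources used here, and the tissue was a punch of mixed cell types.

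Metabotropic receptors do not open an ion channel themselves. Group I receptors, here mGlu5, couple to Gq proteins and phospholipase C and sit mostly on the postsynaptic side, where Homer and Shank proteins anchor them. Group II (mGlu2 and mGlu3) and group III receptors (here mGlu4, mGlu7 and mGlu8) couple to Gi/o proteins, lower cyclic AMP, and on nerve terminals restrain transmitter release. mGlu3 is also made by astrocytes, and mGlu7 lies in the active zone and needs far more glutamate than the others to be activated.

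The microRNA that was overexpressed is printed first because matches to its seed were searched in the receptor transcripts. The mature sequence, from RefSeq (GRCm38.p6), is given 5′ to 3′ with the seed, bases 2 to 8, in capitals, and below it is the only match found in the receptors, with the matched bases in capitals.
mmu-miR-130a-3p: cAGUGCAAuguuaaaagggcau
Grm7 3′ untranslated region, bases 400 to 406 at the capitals: tgtgaggacatTTGCACTttgccactcaa
The letters TTGCACT (complement of bases 2 to 8) and TGCACTA (complement of bases 2 to 7 and an A) were searched on the sense strand of the longest annotated 3′ untranslated region of each gene (GENCODE M21, GRCm38), and an overlap of both was counted once. Grm7, with 1163 bases, held 1 match, while Grm2 (1901 bases), Grm3 (227 bases), Grm4 (885 bases), Grm5 (4038 bases) and Grm8 (581 bases) held 0. Other kinds of site and other parts of the transcripts were not searched. A match was found in 16.0% of the 13275 tested genes with such a region, whose median length was 1225 bases. Mir130a itself was listed at 0 in all 10 libraries, as was every one of the 2206 microRNA genes in the table, so the poly(A) libraries do not show the overexpression.

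Values are TPM as deposited, a measure per transcript length that adds to the same total in every library; the read depth behind them is unknown. All 6 receptors passed the filter of a mean of at least 1 TPM, as did 15680 genes in all. Among the cell type markers, none was at 0 in all libraries. Of 7 microglial markers 6 were lower in the miR-130a libraries, with a summed level of 437 to 629 TPM against 1075 to 2070 TPM in the control libraries. Of 6 endothelial markers 5 were lower. Over all tested genes 11.3% were called lower (limma adjusted p under 0.05). Of 6 oligodendrocyte markers and of 6 oligodendrocyte precursor markers 0 passed, and of 8 striatal markers 1 was lower and 1 higher. Of 7 excitatory neuron markers 0 passed in limma, and of 7 astrocyte markers also 0. At an unadjusted limma p under 0.05, 1 excitatory neuron marker was lower and 1 higher. By the same measure 3 astrocyte, 1 oligodendrocyte and 2 oligodendrocyte precursor markers were lower and 0 higher. Over all tested genes 4455 of 15680 were under that unadjusted limma p. Mitochondrially encoded genes took 16.0% to 19.9% of TPM in the miR-130a libraries and 13.04% to 16.4% in the control libraries. Control libraries 7 and 9 stood apart in earlier results of these data, so each receptor's log2 fold change is also given without them.

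Of the 6 receptors, only Grm8 passed the test, and it was higher in the miR-130a libraries. Grm8 encodes mGlu8, a presynaptic autoreceptor. Over all tested genes, 13.5% passed in either direction, 2.19% as higher and 11.3% as lower, so 1 of 6 called in either direction is near the background share. The test was limma on log2(TPM + 1) with Benjamini-Hochberg adjustment over all 15680 genes at a threshold of 0.05. A lower or higher level in this bulk tissue cannot separate the number of cells that make a transcript from the amount per cell.

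Grm8 (ENSMUSG00000024211) stood at 11.9, 12.8, 12.8, 9.39 and 8.49 TPM in miR-130a libraries 13, 14, 15, 17 and 18. In control libraries 3, 4, 5, 7 and 9 it stood at 7.58, 8.24, 8.43, 5.45 and 5.88 TPM. The groups did not overlap, although miR-130a library 18 lay barely above control library 5, and controls 7 and 9 were the lowest of all 10. The groups were as separate in 11.3% of tested genes, and in 1.85% with every miR-130a library on the higher side. The means were 11.1 ± 2.02 TPM in the miR-130a group and 7.12 ± 1.37 TPM in the control group (SD, n = 5 each), a log2 fold change of 0.57 (SE 0.15, 95% interval 0.24 to 0.91, limma adjusted p = 0.0290). An exact 2-sided permutation test of Grm8 gave an unadjusted p of 0.00794, the smallest that 5 against 5 libraries can give. Only 2.01% of tested genes had a larger log2 fold change than Grm8.

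**Figure D1:**
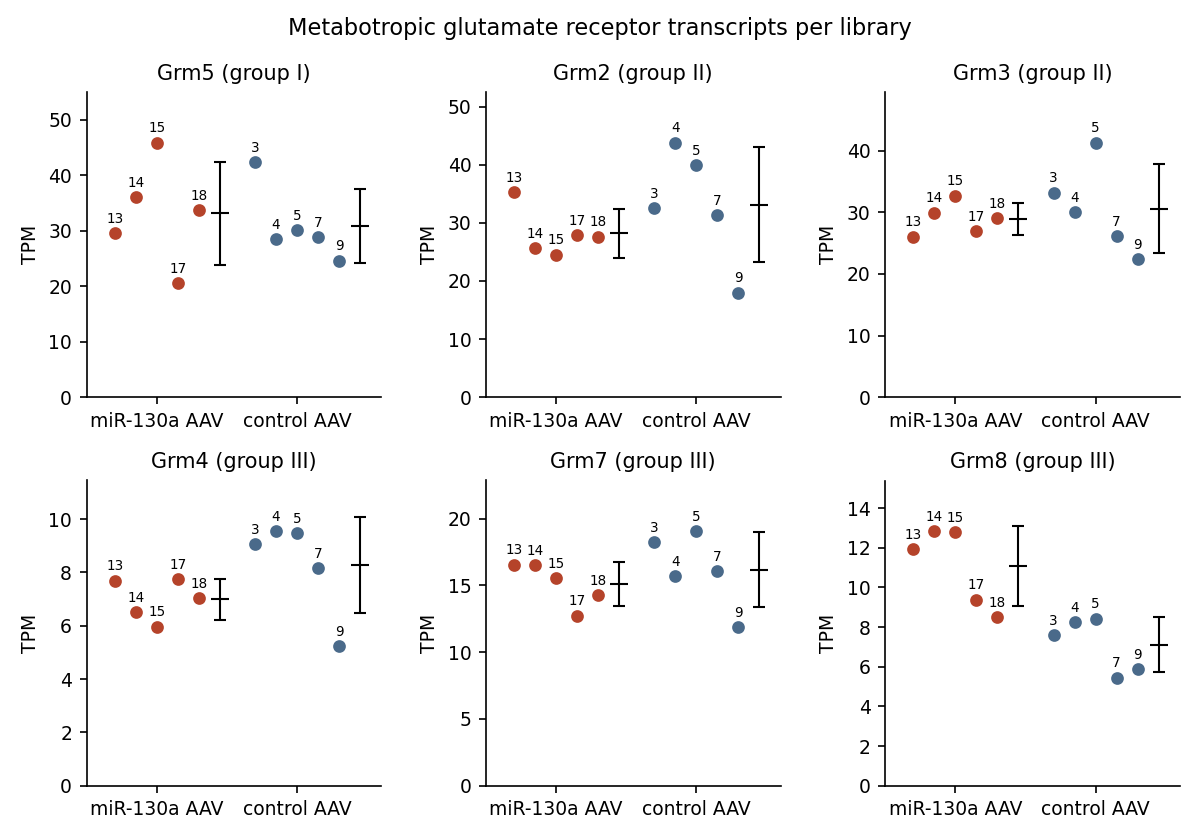
Level of each receptor in TPM (vertical axis, from 0) in miR-130a AAV libraries (left, red) and control AAV libraries (right, blue). Each point is 1 library with its number, and the bar beside a group is the mean ± SD of 5 libraries. Grm8 is the panel in which the groups do not overlap, and control library 9 is the lowest control in 5 of the 6 panels.

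The increase of Grm8 kept its direction in all 21 alternatives, with log2 fold changes between 0.40 and 0.76, but its call was not stable. It was lost without control library 3 (log2 fold change 0.60, limma adjusted p = 0.0505), control library 7 (0.50, 0.0775), miR-130a library 13 (0.55, 0.0747), miR-130a library 14 (0.52, 0.0809) or miR-130a library 15 (0.52, 0.0651), and held in the other 5 single omissions. Without control libraries 7 and 9 together the log2 fold change was 0.40 and the limma adjusted p was 0.0997. Rescaling the libraries left it in place: with median-ratio scaling it was 0.68 (limma adjusted p = 0.0105) and with quantile normalization 0.76 (limma adjusted p = 0.0113).

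**Figure D2:**
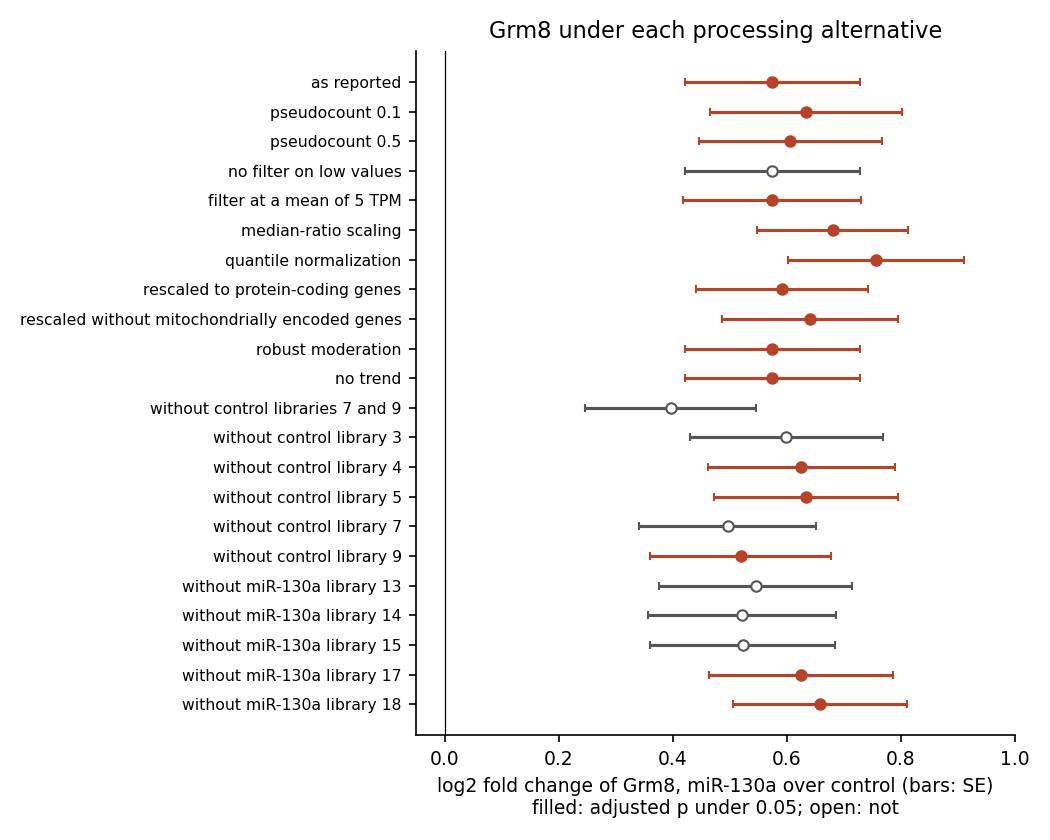
Log2 fold change of Grm8, miR-130a over control (horizontal axis), for the reported test and each alternative (rows), with bars of 1 SE. Filled red points have a limma adjusted p under 0.05, and all points lie above 0, between 0.40 and 0.76.

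Of 7 inhibitory neuron markers, Sst and Vip were higher in the miR-130a libraries, 0 were lower and 5 did not pass. Over all tested genes 2.19% were called higher, and in 1.85% every miR-130a library lay above every control. The summed level of the 7 was 1449 to 1815 TPM in the miR-130a libraries and 1011 to 1357 TPM in the control libraries, without overlap. The neuropeptide somatostatin (Sst), the most abundant, averaged 1065 ± 182 TPM in the miR-130a group and 645 ± 30.4 TPM in the control group (SD, n = 5 each; log2 fold change 0.71, limma adjusted p = 0.00365), and Sst set the separation of the sums. Without it, an omission chosen after its values were seen, the other 6 markers summed to 548 to 626 TPM in the miR-130a libraries and 364 to 692 TPM in the control libraries, with overlap. Gad1, the enzyme that makes GABA, averaged 183 ± 13.7 TPM in the miR-130a group and 170 ± 66.3 TPM in the control group and did not pass. The part of these cells in the Grm8 result was not tested.

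The other group III receptors did not pass. Grm4 (ENSMUSG00000063239), coding for mGlu4, stood at 7.69, 6.50, 5.97, 7.75 and 7.03 TPM in miR-130a libraries 13, 14, 15, 17 and 18. In control libraries 3, 4, 5, 7 and 9 it stood at 9.06, 9.54, 9.46, 8.16 and 5.23 TPM. Control library 9 fell below all 5 miR-130a libraries, and the other 4 controls lay above all of them. With all libraries the log2 fold change was −0.20 (SE 0.15, 95% interval −0.53 to 0.13, limma adjusted p = 0.436). Without control library 9 it was −0.34 (limma adjusted p = 0.0444) and without control libraries 7 and 9 it was −0.38 (limma adjusted p = 0.0496), so in both cases Grm4 was called lower. Under quantile normalization its log2 fold change was 0.0025, and it was negative in the other 20 alternatives.

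Grm7 (ENSMUSG00000056755), coding for the active-zone receptor mGlu7 and the 1 receptor with a seed match, stood at 16.6, 16.5, 15.5, 12.7 and 14.3 TPM in miR-130a libraries 13, 14, 15, 17 and 18. In control libraries 3, 4, 5, 7 and 9 it stood at 18.2, 15.7, 19.1, 16.1 and 11.9 TPM. The groups overlapped over most of their range, with control libraries at both ends. The log2 fold change was −0.081 (SE 0.13, 95% interval −0.36 to 0.20, limma adjusted p = 0.734). Over all genes that passed the filter the median was −0.095, and relative to it Grm7 was at 0.014. Without control libraries 7 and 9 its log2 fold change was −0.21 (limma adjusted p = 0.232).

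The group II receptors, targets of drugs tested in mood disorders and schizophrenia, did not pass either. Grm2 (ENSMUSG00000023192), coding for the presynaptic mGlu2, stood at 35.3, 25.6, 24.5, 27.9 and 27.6 TPM in miR-130a libraries 13, 14, 15, 17 and 18. In control libraries 3, 4, 5, 7 and 9 it stood at 32.5, 43.8, 39.9, 31.3 and 18.0 TPM. The controls spanned a 2.43-fold range that enclosed every miR-130a library, whose own range was 1.44-fold. The log2 fold change was −0.18 (SE 0.20, 95% interval −0.62 to 0.27, limma adjusted p = 0.623), and without control libraries 7 and 9 it was −0.45 (limma adjusted p = 0.0514).

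Grm3 (ENSMUSG00000003974), coding for the neuronal and astrocytic mGlu3, stood at 26.1, 30.0, 32.7, 27.0 and 29.1 TPM in miR-130a libraries 13, 14, 15, 17 and 18. In control libraries 3, 4, 5, 7 and 9 it stood at 33.2, 30.1, 41.3, 26.1 and 22.4 TPM. Here too the controls reached beyond the miR-130a libraries on both sides. The log2 fold change was −0.051 (SE 0.15, 95% interval −0.37 to 0.27, limma adjusted p = 0.862), and without control libraries 7 and 9 it was −0.25 (limma adjusted p = 0.174). Its sign turned under median-ratio scaling (0.063), quantile normalization (0.074) and rescaling without mitochondrially encoded genes (0.0079).

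Grm5 (ENSMUSG00000049583), the group I receptor mGlu5 and a postsynaptic partner of NMDA receptors, stood at 29.5, 36.0, 45.8, 20.5 and 33.7 TPM in miR-130a libraries 13, 14, 15, 17 and 18. In control libraries 3, 4, 5, 7 and 9 it stood at 42.3, 28.5, 30.1, 28.8 and 24.6 TPM. Both the lowest and the highest library belonged to the miR-130a group. The log2 fold change was 0.077 (SE 0.20, 95% interval −0.35 to 0.51, limma adjusted p = 0.844), and its sign turned without control libraries 7 and 9 (−0.045) or without miR-130a library 15 (−0.049). The intervals of Grm2, Grm3, Grm4, Grm5 and Grm7 each include 0 and do not show equal levels.

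**Figure D3:**
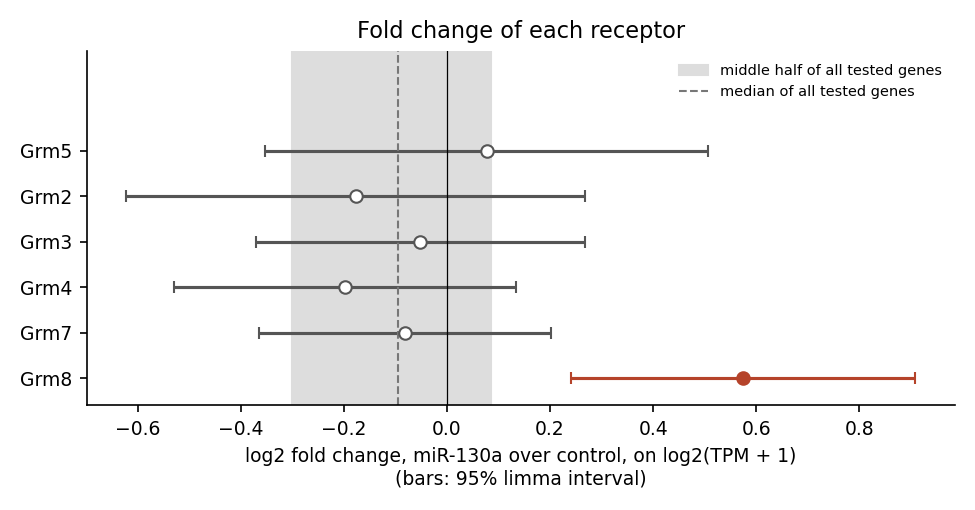
Log2 fold change of each receptor, miR-130a over control (horizontal axis), with its 95% limma interval; the filled red point passed the test. The grey band spans the middle part of all tested genes, from the lower to the upper quartile (−0.30 to 0.086), and the dashed line is their median (−0.095). Grm8 lies at 0.57 with an interval above 0, and the intervals of the other 5 receptors include 0.

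Relative to the median of all tested genes, the log2 fold changes were 0.67 for Grm8, 0.17 for Grm5, 0.044 for Grm3, 0.014 for Grm7, −0.082 for Grm2 and −0.10 for Grm4. The median moved with the scaling, to 0.0086 with median-ratio scaling and 0.051 with quantile normalization.

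The order of the receptors by mean level differed between the groups. In the miR-130a libraries the order of mean TPM was Grm5 (33.1), Grm3 (29.0), Grm2 (28.2), Grm7 (15.1), Grm8 (11.1) and Grm4 (6.99). Among the control libraries it was Grm2 (33.1), Grm5 (30.9), Grm3 (30.6), Grm7 (16.2), Grm4 (8.29) and Grm8 (7.12). The ranges of Grm2, Grm3 and Grm5 overlapped as neighbours in both groups, so their order is not resolved. Grm8 lay above Grm4 in 5 of 5 miR-130a libraries, without overlap of their ranges. In the control libraries Grm4 lay above Grm8 in 4 of 5, with overlap, so their order there is not resolved either.

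Ratios between receptors of the same library, taken on TPM, are not changed by multiplying that library by 1 factor, though quantile normalization can change them. The ratio of Grm8 to Grm4 was 1.21 to 2.14 in the miR-130a libraries and 0.668 to 1.12 in the control libraries (exact permutation p = 0.00794, adjusted p = 0.0397 over 15 ratios). For Grm8 to Grm7 it was 0.595 to 0.823 in the miR-130a libraries and 0.339 to 0.525 in the control libraries, with the same exact permutation p and adjusted p. The ratio of Grm8 to Grm3 was 0.292 to 0.458 in the miR-130a libraries and 0.204 to 0.274 in the control libraries, again with those p-values. These 3 ratios were the only ones of the 15 without overlap between the groups. All 3 have Grm8 on top, whose own levels did not overlap, so they reuse the same Grm8 values and are not separate evidence. The exact permutation p of 0.00794 is the smallest that this test can give and follows from the absence of overlap. The 15 ratios share receptors and are not independent of each other. How often ratios of other gene pairs lack overlap was not tested. Ratios of Grm8 to Grm2 (exact permutation p = 0.0159, adjusted p = 0.0595) and to Grm5 (exact permutation p = 0.0476, adjusted p = 0.143) overlapped and did not pass the adjustment. The 10 ratios that leave Grm8 out all overlapped, with adjusted p-values from 0.648 to 0.722 by the same test.

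Of the summed TPM of the 6 receptors, Grm8 took 8.95% ± 1.13 in the miR-130a libraries and 5.69% ± 0.753 in the control libraries (SD, n = 5 each), without overlap. Grm4 took 5.74% ± 1.13 in the miR-130a libraries and 6.55% ± 0.473 in the control libraries, with overlap. The Grm8 share reuses the same Grm8 values, which did not overlap, and is not separate evidence. The sum itself was 123 ± 11.9 TPM in the miR-130a libraries and 126 ± 24.6 TPM in the control libraries. Control library 9 had the lowest sum of all 10 libraries, 87.9 TPM, and the lowest control value of 5 of the 6 receptors, while for Grm8 the lowest was control library 7. Control library 9 also had the lowest summed excitatory neuron markers of the 10, 3192 TPM, where the other 4 control libraries lay between 4564 and 6092 TPM and the miR-130a libraries between 3478 and 4645 TPM. Its inhibitory neuron (1011 TPM) and striatal (162 TPM) sums were also the lowest of the 10. Its microglial (2070 TPM), astrocyte (985 TPM) and endothelial (326 TPM) sums were the highest. Its oligodendrocyte and oligodendrocyte precursor sums were at neither end. The part of these cells in the receptor values was not tested.

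**Figure D4:**
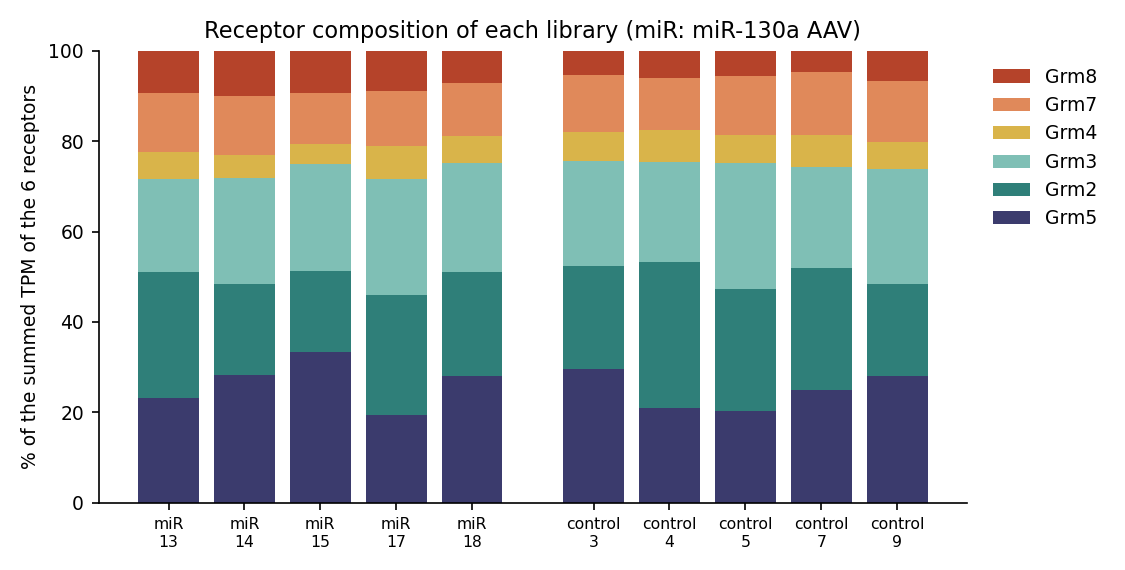
Share of each receptor in the summed TPM of the 6 receptors (vertical axis, percent) in each library, miR-130a libraries on the left and control libraries on the right. The Grm8 segment spans 7.06% to 10.1% in the miR-130a libraries and 4.70% to 6.69% in the control libraries.

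Genes whose pattern over the 10 libraries was nearest to each receptor were found by the root mean square difference of mean-centred log2 values, among 13024 named protein-coding genes. This is a description with no test. For Grm8 the nearest were the homeobox factor Dlx5 (0.13), Vxn (0.14) and the synaptotagmin Syt4 (0.14), against a median of 0.44 over all genes compared. Nearest to Grm4 were the inhibitory synapse adhesion gene Nlgn2 (0.047), Dmwd (0.048) and Apbb1 (0.059), and nearest to Grm3 the scaffold gene Cask (0.053), Ntaq1 (0.063) and Kpna6 (0.076). For Grm7 they were Wdr35 (0.062), the serotonin receptor Htr5a (0.065) and Rps6kl1 (0.072). For Grm2 they were Sez6l (0.081), Rasgrf1 (0.084) and Prrt1 (0.089), and for Grm5 the diacylglycerol kinase Dgkh (0.078), Cntnap5b (0.089) and Trim2 (0.092). Among the receptors themselves the closest pairs were Grm2 with Grm4 and Grm3 with Grm7 (0.14 each), and Grm8 was at least 0.37 from each of the others.

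Genes that work with these receptors mostly did not pass. Over 5 lists with 89 tested genes, 4 were lower, 1 was higher and 84 did not pass; that is 5.62% called, against 13.5% of all tested genes. Their median log2 fold change was −0.028, against −0.095 over all tested genes. The balance turned with the scaling: median-ratio scaling gave 1 lower and 10 higher, and quantile normalization 2 lower and 9 higher. The share of list genes called was then near that of all tested genes. It was 12.4% against 13.2% with median-ratio scaling and 12.4% against 13.5% with quantile normalization. For all tested genes the share of calls that were higher was 16.3% as deposited, 42.0% with median-ratio scaling and 50.6% with quantile normalization. Without control library 9, 21 genes of the lists were lower and 1 higher, or 24.7% called, against 21.8% of all tested genes in the same fit. Without control libraries 7 and 9 together 20 were lower and 1 higher, or 23.6% called, against 17.9% of all tested genes. Calls over all genes rose in both fits as well.

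In the regulation and desensitisation list, 1 of 15 genes was lower and 1 higher. Arrb2, coding for beta-arrestin 2, which uncouples G protein-coupled receptors and takes them into the cell, stood at 32.8, 27.7, 28.9, 33.2 and 28.0 TPM in the miR-130a libraries and at 45.3, 46.1, 49.5, 49.3 and 43.7 TPM in the control libraries. The groups stood well apart, with a log2 fold change of −0.62 (SE 0.085, limma adjusted p = 0.00147), and the call held in all 21 alternatives (limma adjusted p up to 0.00834). Beta-arrestin 2 is also made by microglia, whose markers were lower, and their part was not tested. Rgs2, a regulator that shortens Gq signalling, averaged 32.4 ± 6.23 TPM in the miR-130a group and 22.5 ± 1.89 TPM in the control group (SD, n = 5 each; log2 fold change 0.49, limma adjusted p = 0.0236), without overlap. Its call was lost in 5 of the 21 alternatives, among them the omission of control library 3, control library 4, miR-130a library 13 or miR-130a library 14 (limma adjusted p up to 0.0558). Groups without overlap, as for Arrb2 and Rgs2 here and Plcb3 and Cyth3 below, were found in 11.3% of all tested genes.

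Of 16 genes of the Gq pathway used by mGlu5, 1 was lower. Plcb3, a phospholipase C, averaged 6.05 ± 0.937 TPM in the miR-130a group and 8.75 ± 1.05 TPM in the control group (SD, n = 5 each), without overlap (log2 fold change −0.47, limma adjusted p = 0.0266). The calcium release channel Itpr2 averaged 3.29 ± 0.595 TPM in the miR-130a group and 5.05 ± 1.03 TPM in the control group and did not pass (limma adjusted p = 0.0525). The G protein subunit Gnaq averaged 56.4 ± 8.54 TPM in the miR-130a group and 55.3 ± 6.81 TPM in the control group, and did not pass. Gna11, the other G protein subunit of the list, averaged 57.4 ± 3.78 TPM in the miR-130a group and 74.9 ± 14.5 TPM in the control group. It did not pass (log2 fold change −0.36, limma adjusted p = 0.116). The phospholipase Plcb1 averaged 43.9 ± 8.23 TPM in the miR-130a group and 42.0 ± 6.94 TPM in the control group and did not pass either. Gnaq, Gna11 and Plcb1 were chosen after their values were seen.

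Of 20 genes of the Gi/o pathway used by groups II and III, 1 was lower. Gnai2, the inhibitory G protein subunit abundant in immune cells, averaged 206 ± 37.5 TPM in the miR-130a group and 277 ± 16.9 TPM in the control group (SD, n = 5 each; log2 fold change −0.44, limma adjusted p = 0.0309), with overlap between miR-130a library 17 and the controls. Adcy1, a calcium-stimulated adenylyl cyclase of neurons, averaged 66.7 ± 21.8 TPM in the miR-130a group and 109 ± 22.3 TPM in the control group and did not pass (log2 fold change −0.74, limma adjusted p = 0.0510).

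Of 20 scaffold and binding partners, 1 was lower: Cyth3, an exchange factor for Arf GTPases, averaged 11.9 ± 0.758 TPM in the miR-130a group and 15.2 ± 1.23 TPM in the control group (SD, n = 5 each; log2 fold change −0.33, limma adjusted p = 0.0314), without overlap. Tamalin, a scaffold that binds group I receptors, averaged 37.7 ± 3.71 TPM in the miR-130a group and 29.7 ± 4.32 TPM in the control group and did not pass (log2 fold change 0.34, limma adjusted p = 0.0715). The calls of Plcb3, Gnai2 and Cyth3 were lost in 9, 10 and 10 of the 21 alternatives, median-ratio scaling among them.

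Of 18 genes for the supply and clearance of glutamate and of the dipeptide NAAG, an agonist of mGlu3, 0 passed. The astrocytic glutamate transporter Slc1a3 averaged 239 ± 17.9 TPM in the miR-130a group and 287 ± 25.6 TPM in the control group (SD, n = 5 each; log2 fold change −0.26, limma adjusted p = 0.0792). At an unadjusted limma p under 0.05 there were 4 of the 18, with 2 on the lower and 2 on the higher side. Over all tested genes 4455 of 15680 were under that unadjusted limma p, so the 4 do not set this list apart.

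**Figure D5:**
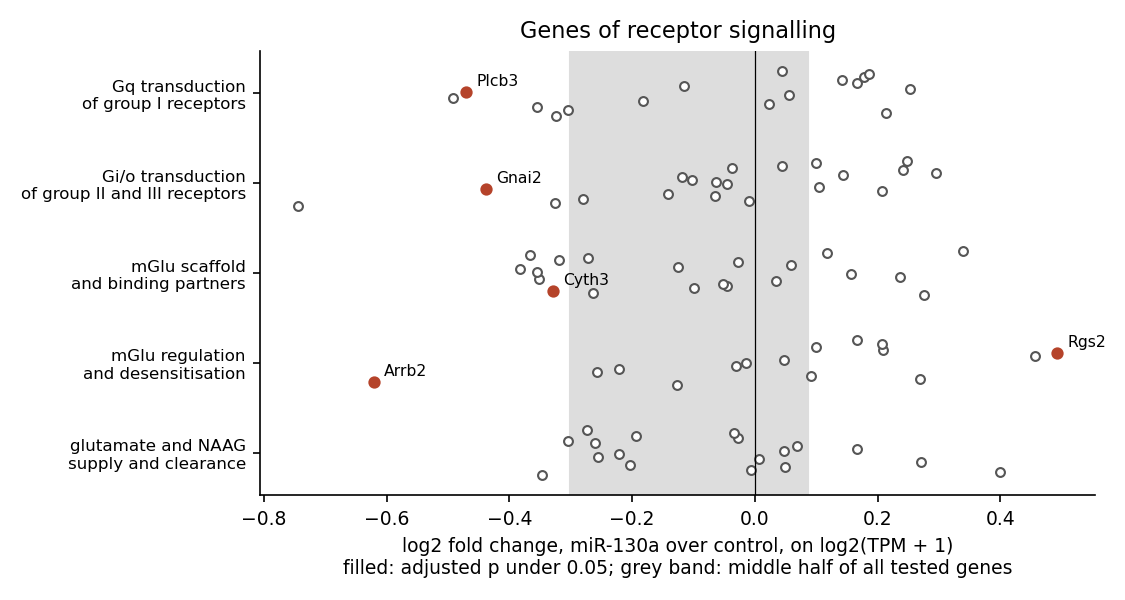
Log2 fold change, miR-130a over control (horizontal axis), of each gene in the 5 lists of receptor signalling (rows). Filled red points, labelled, have a limma adjusted p under 0.05, and the grey band spans the lower to the upper quartile of all tested genes. Rgs2 (0.49) lies on the higher side, and Arrb2 (−0.62), Plcb3 (−0.47), Gnai2 (−0.44) and Cyth3 (−0.33) on the lower side.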

How the data were processed

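Poly(A)-selected stranded libraries from punches of medial prefrontal cortex were sequenced, per the labels' protocols. The authors deposited TPM per gene and library; the tools fastp, HISAT2, RSEM and DESeq2 and the build GRCm39 are named, per the submitters' processing notes, without versions or roles. TPM keeps no depth, so no counting interval was computed, and a change in a few abundant genes shifts all others. The authors' 2 columns of group means were not used.

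Columns were assigned by sample titles. Values were analysed as log2(TPM + 1), a scale that understates changes of low genes. Genes whose mean over the 10 libraries reached 1 TPM were compared with limma 3.58.1 (lmFit, eBayes with trend) in R 4.3.3, 5 against 5 libraries, 2-sided, with Benjamini-Hochberg adjustment at 0.05 and no covariate, since the labels give no batch. The fit was tested on simulated data. Exact permutation tests used all 252 splits and are unadjusted unless said. Libraries are not said to come from separate mice, so p-values measure the spread between libraries, and library numbers run in separate blocks by group, so a batch that followed them cannot be told apart from the group.

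The receptors and the gene lists were chosen with earlier results of these data known. Named were the receptors, up to 4 called genes of each list (the 2 of lowest p where fewer than 2 were called), and the 3 genes nearest to each receptor. The reference used here is GRCm38 and the files GRCm39, so no gene coordinates are given. Alternatives covered pseudocounts, filters, scalings, moderation and left-out libraries. Python 3.11.15 and matplotlib 3.10.9 drew the figures. A pathway gene that the naming rule selected is not reported here.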

Additional observations from a re-analysis of the deposited data

How the results depend on the processing

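No paired analysis was possible because the groups share no library numbers. Across 21 alternatives the sign of Grm8 and Grm2 never changed. Without a filter on low values, which tests more genes, Grm8 kept its log2 fold change of 0.57 with a limma adjusted p of 0.0746, so 0 receptors and 2 list genes passed. In that fit 3.56% of all 36601 genes tested were called, against 13.5% of those tested with the filter. Without control libraries 7 and 9 Grm8 was at 0.40 and not called, Grm4 at −0.38 and called, Grm5 at −0.045, and 21 list genes passed. Median-ratio scaling gave 0.063 for Grm3, 0.030 for Grm7 and 11 list genes. Quantile normalization gave 0.074 for Grm3, 0.0025 for Grm4, 0.089 for Grm7 and 11 list genes. Rescaling without mitochondrially encoded genes gave 0.0079 for Grm3. Leaving out 1 library at a time, log2 fold changes ran from 0.50 to 0.66 for Grm8, −0.34 to −0.15 for Grm4, −0.15 to 0.061 for Grm3, −0.049 to 0.23 for Grm5, −0.37 to −0.064 for Grm2 and −0.18 to −0.022 for Grm7. Receptors called then numbered 0 to 2, the 2 being Grm8 and Grm4 without control library 9, and list genes called 1 to 22, with 1 without control library 3, miR-130a library 13 or miR-130a library 14 and 3 without control library 5, control library 7 or miR-130a library 15. The share of all tested genes called moved too, between 8.0% and 21.8% over these single omissions. The causes were not tested. TPM hold no read counts, so the precision that depth gives to the lower receptors, Grm4 and Grm8, is unknown.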
